A study of Mus musculus with 26 samples.

Results

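Dio1, Thra, Thrb, Thrsp and Slc16a10 are 5 mouse genes of thyroid hormone action, taken here from the liver transcriptomes of 2 clock gene knockouts. They were picked by gene symbol and make up 5 of the 22322 symbols in the files. Dio1 was picked for its fall in the Bmal1 experiment, so its values there are given as a description with no test. Each gene was read from its best expressed Ensembl transcript, the one with the highest mean log2 value over the 20 RNA-seq libraries. The members had 12 of the 46585 transcripts between them: Dio1 had 3, Thra 4, Thrb 3, and Thrsp and Slc16a10 had 1 each. All 5 passed the filter on low values in both experiments, a mean of at least 0.5 RPKM (a read count divided by transcript length and library depth).

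Thyroid hormone leaves the thyroid mostly as the prohormone thyroxine and acts in cells mostly as triiodothyronine, which is made from thyroxine when a deiodinase removes an iodine from its outer ring. Cells take up and release the hormones through membrane transporters. Inside the nucleus the hormone binds receptors that sit on DNA with a retinoid X receptor, mainly at paired AGGTCA hexamers, and exchanges corepressors for coactivators. In the liver this raises Dio1 itself and genes of lipid synthesis and of cholesterol and fatty acid use. Slc16a10 encodes MCT10, a transporter of aromatic amino acids and iodothyronines. Dio1 encodes type 1 deiodinase, a selenoprotein. Thra and Thrb encode the nuclear receptors, Thrb being the main receptor of hepatocytes. Thrsp encodes Spot 14, a nuclear protein linked to fatty acid synthesis and a classic hormone target of rodent liver.

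RNA-seq libraries came from livers of 8-week-old mice that had spent 2 days in constant darkness and were killed at CT12 or CT0, CT0 being the hour at which the lights had come on earlier. In the Bmal1 experiment, 3 mice carrying a liver-specific deletion of the clock activator gene Bmal1 (symbol Arntl) were taken at each time, with 3 wild-type C57BL/6 control mice at each time. The promoter that drove the deletion is not given in the sources used here. In the Nr1d1 experiment there were 2 mice labelled as knockouts of the clock repressor gene Nr1d1 (REV-ERBα) and 2 C57BL/6 control mice at each time, and no tissue is named for this deletion. The comparisons ask what loss of either clock gene does to these genes at opposite times of the day. Because the samples are whole liver, fewer cells of a type and less RNA per cell cannot be told apart.

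The targeted genes were measured over their whole transcripts, and neither gives a plain check of the labels of its own knockout. Arntl stood at 3.59 to 4.37 RPKM in labelled Bmal1 knockout livers and 0.68 to 1.26 in control livers at CT12, and at 5.73 to 7.45 RPKM in labelled knockout livers and 15.7 to 16.3 in control livers at CT0. It was thus lower in the labelled knockout livers at CT0 and higher in them at CT12. Nr1d1 itself stood at 11.1 and 28.4 RPKM in labelled Nr1d1 knockout livers and 3.45 and 33.4 in control livers at CT12, and at 6.10 and 32.9 RPKM in labelled knockout livers and 0.374 and 22.0 in control livers at CT0. Since transcript of the targeted gene was present at such levels, the livers are called by their labels throughout, and every direction below is one between labelled groups. Arntl in the Nr1d1 experiment stood at 8.00 and 19.3 RPKM in labelled knockout livers and 0.597 and 1.30 in control livers at CT12. At CT0 it stood at 8.03 and 19.9 RPKM in labelled knockout livers and 8.92 and 39.7 in control livers. Arntl was thus higher there at CT12 in both replicates, as for 31% of genes, by 2.95 and 3.46 on the log2 scale. Replicate 2 of the Nr1d1 experiment, the only libraries described as paired-end, had RPKM sums over gene transcripts of 2099302 to 2211054, against 588418 to 875424 in replicate 1 and 432657 to 479396 in the Bmal1 experiment. Levels are therefore compared within a replicate there. The hepatocyte markers were present at high levels in every library.

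The promoters of the members were searched for motifs of the clock and of the hormone receptors, because the knockouts bear on the first and the gene family on the second. RefSeq's table for build GRCm38.p6 holds 300-base windows, from 250 bases before to 50 bases after each start, for 4 of the 5 members, with 2 starts for Thrb. The motifs were the E-box CACGTG bound by BMAL1 and its partner, the receptor hexamer AGGTCA, the direct repeat of that hexamer with 4 bases between the copies, and the D-box TTANGTAA, on both strands. The bases before the starts of Dio1 and Thrsp, the members with the largest differences between labelled knockout and control livers of the Bmal1 experiment, are shown with the 40 bases around each match in Thrb. Dio1 lies at chr4:107307169-107307418 on the minus strand, Thrsp at chr7:97417551-97417800 on the minus strand, and the stretches of Thrb at chr14:17660759-17660798 and chr14:17981434-17981473 on the plus strand. Capitals mark a match, and all are written 5′ to 3′.
Dio1: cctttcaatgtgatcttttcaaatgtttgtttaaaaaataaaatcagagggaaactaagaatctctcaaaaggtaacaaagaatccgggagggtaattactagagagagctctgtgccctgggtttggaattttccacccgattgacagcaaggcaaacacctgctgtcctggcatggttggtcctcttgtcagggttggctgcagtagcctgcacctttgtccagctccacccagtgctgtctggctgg
Thrsp: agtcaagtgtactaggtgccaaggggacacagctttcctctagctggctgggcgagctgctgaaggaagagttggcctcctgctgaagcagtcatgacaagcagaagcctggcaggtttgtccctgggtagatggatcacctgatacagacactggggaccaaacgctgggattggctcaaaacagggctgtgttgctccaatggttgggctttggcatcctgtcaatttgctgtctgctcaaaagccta
Thrb, upstream start: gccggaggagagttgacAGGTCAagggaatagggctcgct
Thrb, downstream start: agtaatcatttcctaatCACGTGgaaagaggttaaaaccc
The windows of Dio1, Thrsp and Slc16a10 held none of the 4 motifs. That of the upstream Thrb start held the hexamer, beginning 184 bases before the start, and that of the downstream Thrb start held an E-box, beginning 193 bases before it. Over all 32851 promoter windows in the table, 7.15% held the E-box, 16.3% the hexamer, which is contained in the direct repeat, 0.0152% the direct repeat and 2.32% the D-box. A match describes the letters only.

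In the Bmal1 experiment Dio1 was lower in the labelled knockout livers at both times and higher at CT12 than at CT0 in both genotypes. At CT12 it stood at 12.4, 19.1 and 15.5 RPKM in the 3 labelled Bmal1 knockout livers, against 44.5, 63.5 and 64.4 RPKM in the 3 control livers. At CT0 the values were 3.90, 3.90 and 4.19 RPKM in labelled knockout livers, against 36.2, 37.7 and 39.2 RPKM in control livers. No ranges overlapped between any of the 4 groups, as was the case for 8.03% of genes (lower in labelled knockout livers at CT12), 9.07% (lower at CT0), 11.4% (higher at CT12 in labelled knockout livers) and 10.7% (higher at CT12 in control livers), and nothing is read from these shares since Dio1 was chosen for the fall. The order of the groups was control CT12, control CT0, labelled knockout CT12 and labelled knockout CT0. The group means were 15.7 ± 3.32 RPKM in labelled knockout livers and 57.4 ± 11.2 in control livers at CT12, and 3.99 ± 0.165 RPKM in labelled knockout livers and 37.7 ± 1.47 in control livers at CT0 (SD, n = 3). Dio1 was thus 3.66-fold lower in the labelled knockout livers at CT12 and 9.44-fold lower at CT0, without a test. On the scale of log2(RPKM + 0.5) the differences were -1.84 ± 0.16 at CT12 and -3.09 ± 0.16 at CT0 (standard error of the fit). The CT12 level was 3.92 times the CT0 level in labelled knockout livers and 1.52 times in control livers. The gap between the genotypes was therefore 1.25 ± 0.22 smaller at CT12 on the log2 scale.

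**Figure D1:**
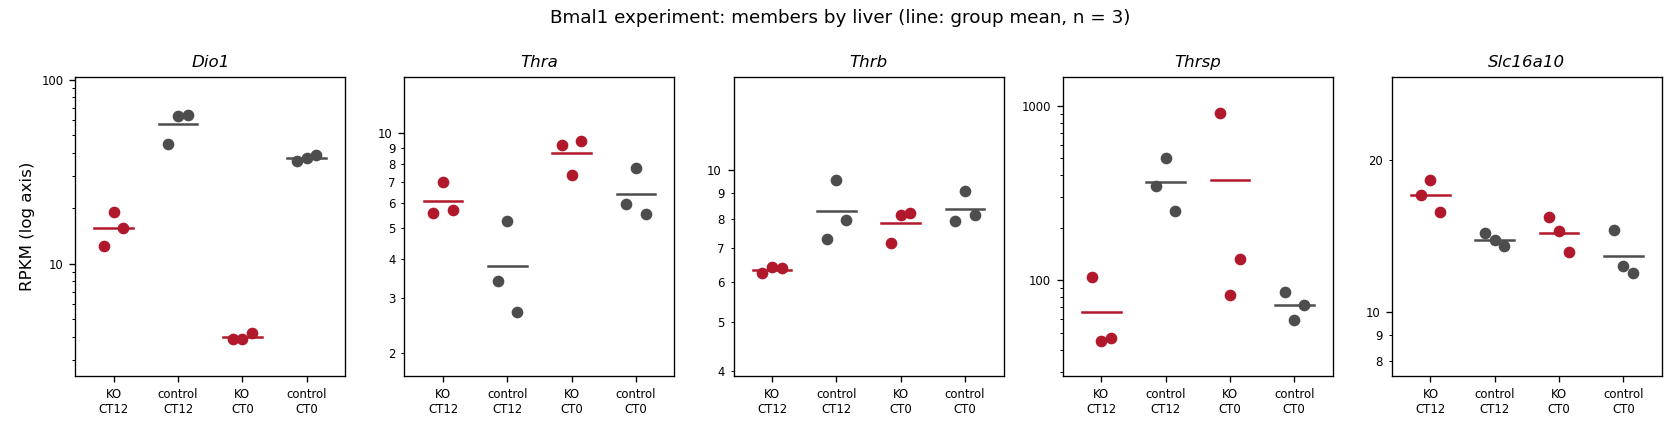
RPKM of each member in each liver of the Bmal1 experiment (log axis, separate for each gene), with labelled knockout livers in red, control livers in grey and a line at the group mean of 3 livers. Dio1 runs from 3.90 to 4.19 RPKM in labelled knockout livers at CT0 up to 44.5 to 64.4 in control livers at CT12, and 1 labelled knockout liver at CT0 stands apart for Thrsp, at 912 RPKM.

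The transcript used was ENSMUST00000106748, and the others, ENSMUST00000082426 and ENSMUST00000129138, gave similar log2 differences in the Bmal1 experiment. Over the 3 transcripts those between labelled knockout and control livers ran from -2.03 to -1.84 at CT12 and from -3.09 to -2.98 at CT0. In replicate 2 of the Nr1d1 experiment ENSMUST00000082426 had lower levels, 169 to 291 RPKM against 314 to 524 for the transcript used. The 3 transcripts overlap in sequence and share reads, so they are not independent readings. Whole reads could be recovered from the RPKM steps for Dio1 in the Bmal1 libraries, known only up to 1 shared multiplier: 71 to 100 reads in labelled knockout livers and 284 to 369 in control livers at CT12, and 19 to 23 reads in labelled knockout livers and 262 to 284 in control livers at CT0. These are the smallest whole numbers that the steps allow. Dio2, the deiodinase of brain, pituitary and brown fat, was listed at 0 in 18 of the 20 libraries and at 0.0300 RPKM or less in the others. Dio3, which inactivates the hormones, reached 0.327 RPKM at most.

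The genes whose pattern was most like that of Dio1 over the 12 Bmal1 libraries were the carboxylesterase Ces1f (Pearson r = 0.97), the serum amyloid Saa4 (0.96), the acyl-CoA synthetase Acsf2 (0.93), the biliverdin reductase Blvrb (0.93) and the retinol dehydrogenase Rdh9 (0.93). They were chosen for this likeness among 6378 genes with a mean of at least 5 RPKM, of which 8 genes, or 0.125%, had an r above 0.9. These correlations are a description over libraries that share 4 groups. Saa4 averaged 45.7 RPKM in labelled knockout livers and 110.1 in control livers at CT12, and 24.6 RPKM in labelled knockout livers and 77.5 in control livers at CT0. Ces1f averaged 161 RPKM in labelled knockout livers and 307 in control livers at CT12, and 118 RPKM in labelled knockout livers and 271 in control livers at CT0. In the 8 Nr1d1 libraries, after each replicate's mean was taken away, r with Dio1 was 0.80 for Saa4, 0.59 for Rdh9, 0.58 for Blvrb, 0.27 for Ces1f and 0.22 for Acsf2. Among the members, r with Dio1 over the 12 Bmal1 libraries was -0.73 for Thra, 0.31 for Thrb, 0.0023 for Thrsp and -0.30 for Slc16a10.

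No difference of Dio1 passed the test in the Nr1d1 experiment, whose results were also known when the genes were chosen. At CT12 it stood at 27.2 and 314 RPKM in the labelled Nr1d1 knockout livers (replicates 1 and 2), against 105 and 524 RPKM in the control livers. At CT0 the values were 17.8 and 359.6 RPKM in labelled knockout livers, against 30.0 and 334 RPKM in control livers. Within each replicate the CT12 value was lower in the labelled knockout liver, by 1.93 and 0.74 on the log2 scale, while at CT0 the replicates differed in sign, at -0.74 and 0.11. The fit gave -1.33 ± 0.39 at CT12 (limma with replicate as a block, unadjusted p = 0.0099, adjusted p = 0.809) and -0.31 ± 0.39 at CT0 (adjusted p = 0.927). Genes lower in the labelled knockout liver of both replicates at CT12, as Dio1 was, made up 23.5% of the 12738 genes tested, and 0.0393% were called there in either direction. In control livers Dio1 was higher at CT12 than at CT0 in both replicates, by 1.79 and 0.65, as were 36.9% of genes (adjusted p = 0.447, where 0.353% were called). In labelled knockout livers the replicates differed in sign, at 0.60 and -0.20 (adjusted p = 0.87, where 0.055% were called).

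**Figure D2:**
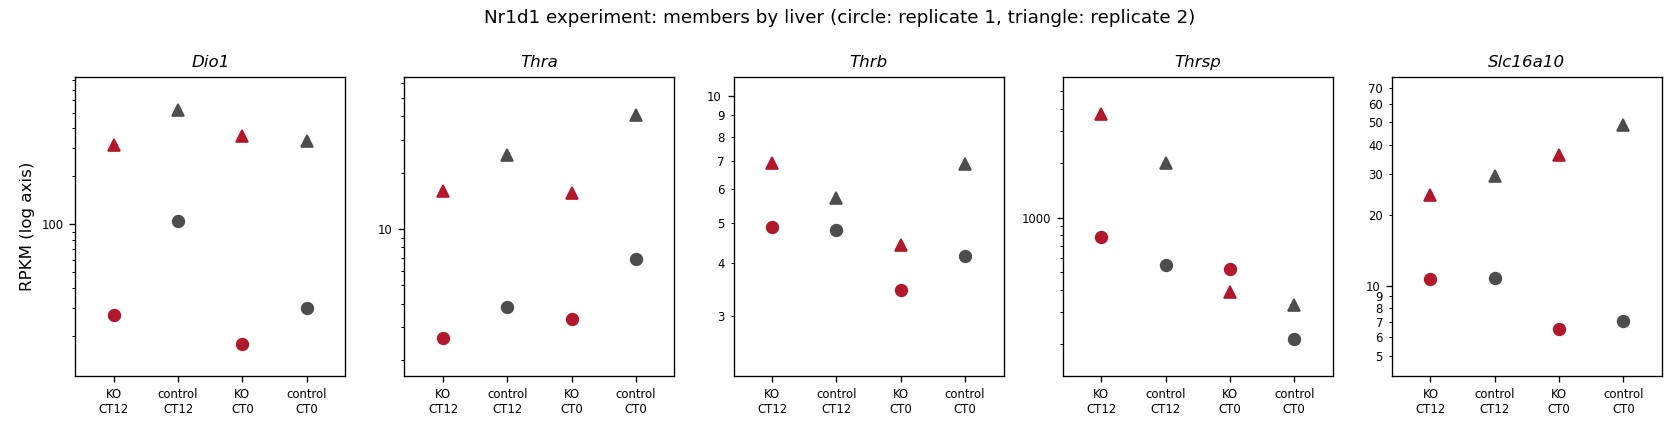
RPKM of each member in each liver of the Nr1d1 experiment (log axis, separate for each gene), with labelled knockout livers in red, control livers in grey, circles for replicate 1 and triangles for replicate 2. The replicates stand apart for Dio1 (17.8 to 105 RPKM in replicate 1, 314 to 524 in replicate 2), so groups are read within a replicate.

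Slc16a10, the transporter, varied little between the groups of the Bmal1 experiment. It stood at 17.1, 18.2 and 15.8 RPKM in labelled Bmal1 knockout livers and 14.3, 13.9 and 13.5 in control livers at CT12, ranges that did not overlap, as for 19.9% of genes in the same direction. At CT0 it stood at 15.4, 14.5 and 13.2 RPKM in labelled knockout livers and 14.5, 12.3 and 11.9 in control livers, ranges that did. The log2 differences, 0.28 ± 0.10 at CT12 (adjusted p = 0.106) and 0.15 ± 0.10 at CT0 (adjusted p = 0.583), did not pass the test. The 95% interval at CT0 ran from -0.07 to 0.36. In the Nr1d1 experiment it stood at 10.6 and 24.4 RPKM in labelled knockout livers and 10.8 and 29.6 in control livers at CT12, and at 6.53 and 36.1 RPKM in labelled knockout livers and 7.06 and 48.8 in control livers at CT0. The differences there were -0.15 ± 0.37 and -0.27 ± 0.37 (adjusted p = 1 and 0.934). The 95% interval at CT0 was wider there, from -1.12 to 0.58. Between the times the replicates differed in sign. CT12 minus CT0 was 0.66 and -0.55 in labelled knockout livers and 0.58 and -0.71 in control livers on the log2 scale. Both replicates had lower values in the labelled knockout liver at both times, as had 8.24% of genes. With each time taken alone the shares were 23.5% at CT12 and 33.2% at CT0. The values in replicate 2 were above those in replicate 1 in every group.

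Of the receptors, Thrb was the steadier. In the Bmal1 experiment it stood at 6.23, 6.42 and 6.38 RPKM in labelled knockout livers and 7.31, 9.54 and 7.97 in control livers at CT12. At CT0 it stood at 7.17, 8.14 and 8.21 RPKM in labelled knockout livers and 7.91, 9.09 and 8.15 in control livers. The CT12 ranges did not overlap, as for 8.03% of genes in the same direction, but the difference of -0.35 ± 0.11 did not pass the test (adjusted p = 0.0672); that at CT0 was -0.09 ± 0.11 (adjusted p = 0.789). With trimmed-mean (TMM) scaling in place of the deposited RPKM the CT12 difference passed, at -0.45 (adjusted p = 0.0247), as it did without replicate 1 of the CT12 control livers, at -0.43 (adjusted p = 0.0468). In the Nr1d1 livers Thrb stood at 4.88 and 6.92 RPKM in labelled knockout livers and 4.81 and 5.73 in control livers at CT12, and at 3.45 and 4.41 RPKM in labelled knockout livers and 4.17 and 6.87 in control livers at CT0. None of its differences passed there. The fit gave 0.14 ± 0.20 at CT12 (adjusted p = 1) and -0.41 ± 0.20 at CT0 (adjusted p = 0.873). The 3 Thrb transcripts had log2 differences between -0.35 and -0.31 at CT12 in the Bmal1 experiment, and they share reads.

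Thra was lower at CT12 than at CT0 in control livers of the Bmal1 experiment. At CT12 it stood at 5.59, 7.004 and 5.72 RPKM in labelled Bmal1 knockout livers and 3.40, 5.27 and 2.71 in control livers. At CT0 it stood at 9.20, 7.36 and 9.43 RPKM in labelled knockout livers and 5.97, 7.76 and 5.54 in control livers. The genotypes did not overlap at CT12, as for 19.9% of genes in the same direction, and did at CT0. The times did not overlap in either genotype, as for 11.2% of genes in labelled knockout livers and 22.8% in control livers that were lower at CT12. The control livers had less Thra at CT12: it fell by 0.72 ± 0.20 on the log2 scale at CT12 relative to CT0 (limma, adjusted p = 0.0407), where 10.8% of the 11439 genes tested were called, 7.43% as lower. That call was lost without replicate 1, 2 or 3 of the CT0 control livers, replicate 1 or 3 of the CT12 control livers, or replicate 3 of either labelled knockout group, with log2 differences of -0.96 to -0.53 over all 12 fits that left out 1 library and adjusted p up to 0.149. With TMM scaling it was lost as well (-0.63, adjusted p = 0.0573). Under that scaling 689 genes were called higher and 576 lower between the times in control livers, against 389 and 850 with the deposited values.

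Thra also was below its CT0 level at CT12 in the control livers of both Nr1d1 replicates, by 0.78 and 0.68, as were 15.5% of genes (-0.73 ± 0.20, adjusted p = 0.321). The labelled Bmal1 knockout livers had -0.47 ± 0.20 (adjusted p = 0.229), and the test of a difference between the genotypes gave 0.25 ± 0.28 (adjusted p = 0.793, where 1.31% of genes were called).

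Between the genotypes Thra did not pass the test in the Bmal1 experiment. The differences were 0.66 ± 0.20 at CT12 (adjusted p = 0.0614) and 0.41 ± 0.20 at CT0 (adjusted p = 0.408). Without replicate 2 of the CT12 control livers, the highest of that group, the CT12 difference passed, at 0.90 (adjusted p = 0.0095). The sign was the opposite in the Nr1d1 experiment. At CT12 Thra stood at 2.61 and 16.0 RPKM in labelled Nr1d1 knockout livers and 3.84 and 24.9 in control livers, and at CT0 at 3.31 and 15.6 RPKM in labelled knockout livers and 6.95 and 40.4 in control livers. It was lower in the labelled knockout liver in both replicates at both times, by 0.48 and 0.62 at CT12 and by 0.97 and 1.35 at CT0, as were 8.24% of the genes tested. Neither difference passed the adjustment over all genes: -0.55 ± 0.20 at CT12 (adjusted p = 0.969) and -1.16 ± 0.20 at CT0 (unadjusted p = 0.000381, adjusted p = 0.873). No gene was called at CT0 there by limma, and 575 genes had an unadjusted p under 0.05 where 637 would be counted by chance alone.

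Thra lies on chromosome 11, where its annotated span overlaps that of Nr1d1 on the other strand. The library kit does not mark the strand, so reads of one gene in the shared stretch cannot be told from reads of the other. Nr1d1 stood at 0.968, 1.61 and 1.56 RPKM in labelled Bmal1 knockout livers and 2.35, 2.95 and 1.56 in control livers at CT12, and at 0.271, 0.310 and 0.801 RPKM in labelled knockout livers and 2.04, 2.05 and 6.57 in control livers at CT0. Its group means were thus lower in labelled knockout livers where those of Thra were higher, at both times. Nr1d1 was higher and Thra lower in the labelled knockout livers of replicate 1 of the Nr1d1 experiment at both times and of replicate 2 at CT0, while at CT12 in replicate 2 both were lower. All 4 Thra transcripts had log2 differences above 0 in the Bmal1 experiment, from 0.36 to 0.66 at CT12 and from 0.31 to 0.49 at CT0. All 4 were below 0 in the Nr1d1 experiment, from -0.61 to -0.36 at CT12 and from -1.35 to -1.01 at CT0. Which of the transcripts hold the shared stretch is not known here, and its part in these values was not tested.

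**Figure D3:**
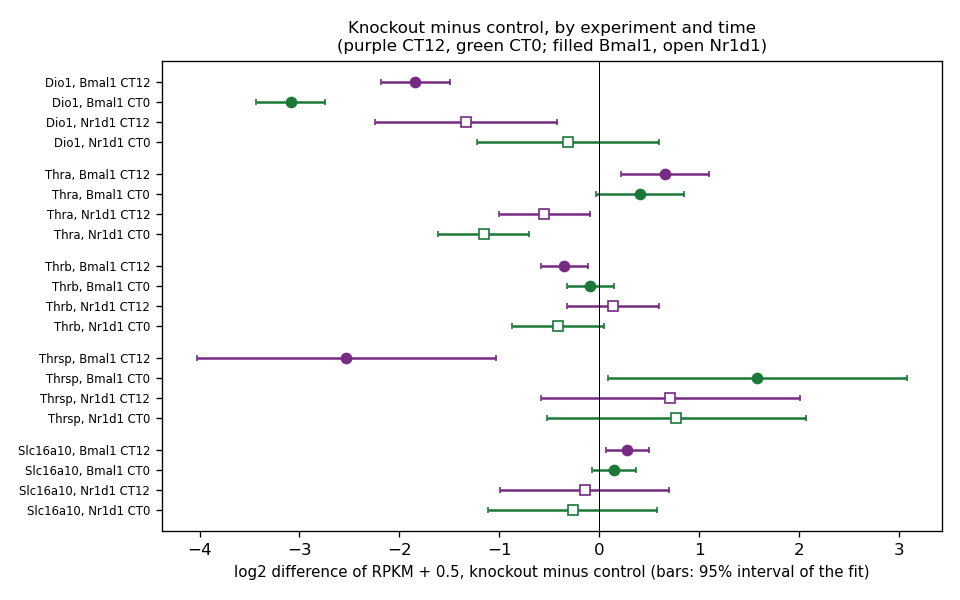
Labelled knockout minus control on the scale of log2(RPKM + 0.5) for each member, experiment and time (purple CT12, green CT0; filled circles Bmal1, open squares Nr1d1), with 95% intervals of the fit that are not adjusted over genes. The intervals of Dio1 in the Bmal1 experiment are no test, since Dio1 was picked for its fall there. Dio1 stands at -1.84 and -3.09 in the Bmal1 experiment, and Thra is above 0 in the Bmal1 experiment and below 0 in the Nr1d1 experiment.

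Thrsp, the hormone target, was lower in the labelled Bmal1 knockout livers at CT12, and at CT0 its difference had the other sign and did not pass the test. At CT12 it stood at 105, 45.1 and 46.8 RPKM in labelled knockout livers, against 348, 505 and 248 RPKM in control livers. At CT0 the values were 912, 82.9 and 133 RPKM in labelled knockout livers, against 86.1, 59.5 and 72.5 RPKM in control livers. The groups did not overlap at CT12, as for 8.03% of genes in the same direction. At CT0 a single labelled knockout liver, replicate 1, was far above the other 5 livers. The CT12 means, 65.5 ± 34.0 RPKM in labelled knockout livers and 367 ± 129 in control livers (SD, n = 3), differed 5.60-fold. That fall of 2.53 ± 0.68 on the log2 scale passed the test (adjusted p = 0.0371), where 9.68% of genes were called, 3.22% as lower. It was lost without any one of the 6 control livers and without replicate 2 or 3 of the CT12 labelled knockout livers, with log2 differences of -2.92 to -2.27 over the 12 fits and adjusted p up to 0.116. At CT0 the difference was 1.58 ± 0.68 (adjusted p = 0.331), and 0.54 without replicate 1 of the labelled knockout livers. The change of the genotype difference between the times was -4.11 ± 0.97 (adjusted p = 0.0711), and it passed without that liver (-3.07, adjusted p = 0.0161) and without replicate 2 of the same group (-4.80, adjusted p = 0.0272).

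Thrsp was higher at CT12 than at CT0 in the control livers of both experiments, without overlap in the Bmal1 experiment (as for 10.7% of genes), though the adjusted p missed the threshold in each. CT12 minus CT0 was 2.28 ± 0.68 in the control livers of the Bmal1 experiment (adjusted p = 0.0533). It passed without replicate 1 or 2 of the CT0 labelled knockout livers, which changes only the shared spread (adjusted p = 0.00162 and 0.0317). In labelled Bmal1 knockout livers it was -1.83 ± 0.68 (adjusted p = 0.177), and -0.79 without replicate 1 of the CT0 livers (adjusted p = 0.311). In Nr1d1 livers Thrsp stood at 785 and 3722 RPKM in labelled knockout livers and 550.1 and 1992 in control livers at CT12, and at 522 and 391 RPKM in labelled knockout livers and 213 and 329 in control livers at CT0. CT12 minus CT0 was positive in both replicates of both genotypes, as for 47% of genes in labelled knockout livers and 36.9% in control livers. It was 1.92 ± 0.56 in labelled knockout livers (adjusted p = 0.285) and 1.98 ± 0.56 in control livers (adjusted p = 0.365). Labelled knockout minus control was 0.71 ± 0.56 at CT12 and 0.77 ± 0.56 at CT0 (adjusted p = 1 and 0.873). Thrsp was higher in the labelled knockout liver of both replicates at both times. With each time taken alone, 31% of genes were so at CT12 and 17.8% at CT0, and the share for both times together was not computed. Leaving out 1 library gave differences of -0.07 to 1.49 at CT12 and -0.22 to 1.77 at CT0.

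The liver with 912 RPKM of Thrsp stood apart for the enzymes of fatty acid synthesis as well. Replicate 1 of the CT0 labelled knockout livers was the highest of its group for 12 of the 12 lipogenic genes listed, where it was the highest for 44.4% of all genes. Acly, which makes cytosolic acetyl-CoA, stood at 1059 RPKM there against 177 and 220.1 in replicates 2 and 3, and the elongase Elovl6 at 185 against 16.5 and 21.8. The median log2 difference of these genes between labelled knockout and control livers at CT0 was 0.50 with this liver and -0.04 without it, beside 0.011 for all genes with it. None of the 12 was called at CT0 by limma with or without it. With it, 2 of 12 had an unadjusted p under 0.05, as had 13.6% of all genes. At CT12 their median was -1.05, beside 0.09 for all genes, and 2 of 12 were lower (3.22% of all genes), Srebf1 and Mlxipl, the transcription factors of insulin- and carbohydrate-driven lipogenesis. Without that liver, whose spread enters the shared fit, 7 of 12 were lower, beside 3.72% of all genes in that fit. None of the 12 was called by limma in the Nr1d1 experiment, where 2 had an unadjusted p under 0.05 at CT12 and 0 at CT0, with medians of 0.81 and 0.0016. Over all genes 4.55% had such a p at CT12 and 4.51% at CT0.

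**Figure D4:**
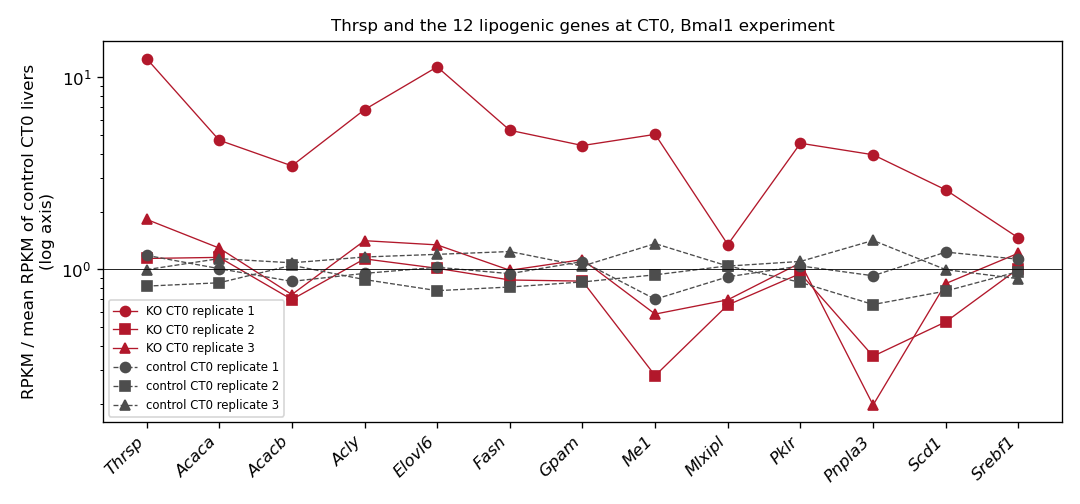
RPKM of Thrsp and the 12 lipogenic genes in each CT0 liver of the Bmal1 experiment, divided by the mean of the 3 control CT0 livers (log axis; red labelled knockout, grey control, one line per liver). Replicate 1 of the labelled knockout livers lies above the other livers for Thrsp (912 RPKM) and is the highest of its group for 12 of 12 lipogenic genes.

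Around the members, 76 other genes of hormone handling and action were listed by role, and 70 of them were tested in the Bmal1 experiment. At CT12 3 were higher and 8 lower in labelled Bmal1 knockout livers, where 6.46% of all genes were higher and 3.22% lower (with TMM scaling 479 and 554 genes were called, against 739 and 368 with the deposited values). At CT0 3 were higher and 4 lower, where 1.62% of all genes were called, 0.909% as higher and 0.708% as lower. Their median log2 differences were -0.08 at CT12 and 0.019 at CT0, beside 0.09 and 0.011 over all genes.

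The conjugating enzymes, which mark iodothyronines and many other compounds for excretion, were called in both directions. Sult1e1, the estrogen sulfotransferase that also acts on iodothyronines, stood at 1.22 to 11.4 RPKM in labelled knockout livers and 0.148 to 0.414 in control livers at CT12, and at 26.6 to 76.9 RPKM in labelled knockout livers and 0.0417 to 3.86 in control livers at CT0. It rose by 2.70 ± 0.76 at CT12 (adjusted p = 0.0432) and by 4.63 ± 0.76 at CT0 (adjusted p = 0.01) on the log2 scale. Sult1b1 rose at CT12 by 0.52 ± 0.15 (adjusted p = 0.0479) and Sult1d1 at CT0 by 1.07 ± 0.17 (adjusted p = 0.00875). The sulfotransferase Sult1a1 fell at CT12 by 0.92 ± 0.18 (adjusted p = 0.00769). Ugt1a1, the bilirubin glucuronosyltransferase that also conjugates thyroxine, fell at both times, by 0.65 ± 0.11 at CT12 (adjusted p = 0.00382) and by 0.55 ± 0.11 at CT0 (adjusted p = 0.036). In all, 2 of 5 rose and 2 fell at CT12, and 2 of 5 rose and 1 fell at CT0. Over all genes 6.46% were higher and 3.22% lower at CT12, and 0.909% and 0.708% at CT0. With TMM scaling both rises at CT12 lost their calls (adjusted p = 0.0518 for Sult1e1 and 0.101 for Sult1b1), and that of Sult1b1 held in only 2 of the 12 fits that left out 1 library.

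Among the other transporters and carriers, Slco1a4, an organic anion transporter that carries iodothyronines, rose at both times. It averaged 114 ± 21.1 RPKM in labelled knockout livers and 69.5 ± 13.8 in control livers at CT12, and 85.0 ± 17.9 RPKM in labelled knockout livers and 45.3 ± 3.34 in control livers at CT0 (SD, n = 3), with log2 differences of 0.72 ± 0.18 (adjusted p = 0.0268) and 0.88 ± 0.18 (adjusted p = 0.0332). Slco1a1, of the same family, fell at CT12 by 0.64 ± 0.17 (adjusted p = 0.0372). The other 6 transporters tested were not called. Alb, serum albumin, which carries thyroxine in blood, fell at both times. Its mean was 14868 RPKM in labelled knockout livers and 30907 in control livers at CT12, and 19009 RPKM in labelled knockout livers and 36059 in control livers at CT0 (adjusted p = 0.000528 and 0.00709). Neither transthyretin (Ttr) nor thyroxine-binding globulin (Serpina7) was called between the genotypes.

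The other genes that triiodothyronine is known to raise in liver were mostly not called between the genotypes. Of 10 tested, 1 fell at CT12 and 2 fell at CT0, where 3.22% and 0.708% of all genes were called lower. Cpt1a, which lets fatty acids into mitochondria, averaged 73.7 ± 10.8 RPKM in labelled knockout livers and 105.6 ± 12.2 in control livers at CT12, and 35.8 ± 6.42 RPKM in labelled knockout livers and 58.1 ± 6.65 in control livers at CT0 (adjusted p = 0.0491 and 0.0398). Klf9, a transcription factor known to act on the Dio1 gene, stood at 9.42, 11.6 and 11.7 RPKM in labelled knockout livers and 17.8, 15.2 and 16.2 in control livers at CT0. It fell there by 0.57 ± 0.10 (adjusted p = 0.0135), without overlap, as for 9.07% of genes in the same direction. At CT12 the difference was 0.16 ± 0.10 (adjusted p = 0.342). Hnf4a, another factor known to act on Dio1, was not called at either time (-0.09 ± 0.14 at CT12 and -0.22 ± 0.14 at CT0).

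The retinoid X receptors (0 of 3), the coregulators of the receptors (0 of 13) and the genes that build selenocysteine into proteins (0 of 6) had no call between the genotypes at either time. At an unadjusted p under 0.05 there were 0 retinoid X receptors, 3 coregulators and 3 selenoprotein synthesis genes at CT12, and 1, 1 and 3 at CT0, by limma, where 24% and 13.6% of all genes had such a p at CT12 and at CT0. Of 7 other selenoproteins 1 was called: Sepp1, which carries selenium from the liver in plasma, fell at CT12 by 0.50 ± 0.11 (adjusted p = 0.0111). At that time 3.22% of all genes were called lower. The iodotyrosine deiodinase Iyd stood at 41.0 to 50.4 RPKM in labelled knockout livers and 41.1 to 48.0 in control livers at CT12 and was not called. Leaving out each of the 12 libraries in turn, the calls that held every time were those of Alb, Srebf1, Sult1a1, Sepp1 and Ugt1a1 at CT12 and of Alb, Klf9, Sult1d1 and Sult1e1 at CT0. Adjusted p of the others reached up to 0.166. At CT12 Mlxipl was lost without control replicate 2 or labelled knockout replicate 2 or 3 of that time, Slco1a1 without control 1 or 2, labelled knockout 1 or 3, or labelled knockout 3 of CT0, and Slco1a4 without control 2 or 3 or labelled knockout 1 or 3. Sult1b1 was lost without any library but control 1 and labelled knockout 2 of CT12. Sult1e1 was lost at CT12 without any control of CT12, control 3 or labelled knockout 3 of CT0, or labelled knockout 1 or 2 of CT12. Cpt1a was lost at CT12 without control 1 or 3 or labelled knockout 1 or 2 of CT12, control 2 or 3 of CT0 or labelled knockout 3 of CT0. At CT0 Cpt1a was lost without control 2 or 3 or labelled knockout 1 or 3 of CT0, control 1 of CT12 or labelled knockout 2 of CT12, Slco1a4 without any control or labelled knockout 3 of CT0, and Ugt1a1 without control 2 or 3 or any labelled knockout of CT0 or any control of CT12. With TMM scaling every one of these genes kept its sign, and Slco1a4 lost its call at CT12, as did Sult1e1 and Sult1b1.

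**Figure D5:**
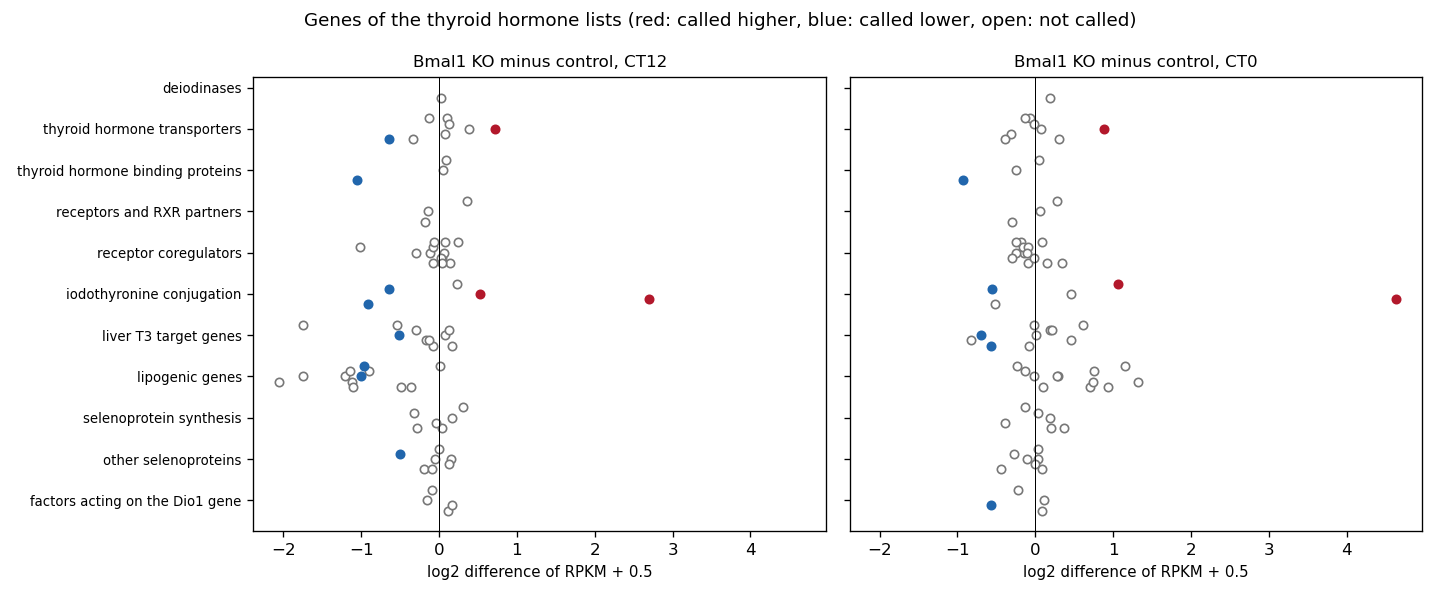
Log2 difference of RPKM + 0.5, labelled Bmal1 knockout minus control, at CT12 (left) and CT0 (right) for the 70 tested genes of the lists other than the members, 1 row per list; the vertical offset within a row only separates points, and Me1 and Klf9 stand in 2 lists each. Filled points passed the test, 3 higher and 8 lower at CT12 and 3 higher and 4 lower at CT0, with Sult1e1 farthest to the right in both panels.

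None of the 72 listed genes tested in the Nr1d1 experiment was called in any comparison by limma, and 5 at CT12 and 2 at CT0 had an unadjusted p under 0.05 between the genotypes. Over all genes 0.0393% were called at CT12 and 0% at CT0, and 4.55% and 4.51% had such an unadjusted p. Sult1e1 stood at 11.7 and 44.0 RPKM in labelled Nr1d1 knockout livers and 2.45 and 0.696 in control livers at CT12 (3.64 ± 1.16, adjusted p = 0.879). At CT0 it stood at 1.81 and 15.0 RPKM in labelled knockout livers and 0.0414 and 17.4 in control livers. The replicates thus differed in sign at CT0.

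Between the times, listed genes were called in both genotypes of the Bmal1 experiment. In labelled knockout livers 3 of 70 were higher and 2 lower at CT12 than at CT0, where 0.909% and 0.988% of genes were (1.9% in all), and in control livers 5 were higher and 2 lower, where 3.4% and 7.43% were. Pck1, a gluconeogenic enzyme, rose by 2.03 ± 0.23 in labelled knockout livers and by 1.33 ± 0.23 in control livers. Cpt1a rose by 1.04 ± 0.15 in labelled knockout livers and by 0.86 ± 0.15 in control livers. Klf9 rose in labelled knockout livers, by 0.72 ± 0.10 (adjusted p = 0.00641), and not in control livers, where its difference was -0.02 ± 0.10 (adjusted p = 0.918).

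Some markers of other cells were called between the genotypes. The summed RPKM of 7 neutrophil markers ran from 17.8 to 46.3 in labelled Bmal1 knockout livers and from 5.94 to 8.80 in control livers at CT12, where 2 of 7 were higher (S100a8 and S100a9). At CT0 the sums overlapped, at 104 to 219 in labelled knockout livers and 32.2 to 112 in control livers, and 0 of 7 were called by limma. An unadjusted p under 0.05 was found by limma for 5 of 7 at CT12 and 7 of 7 at CT0. Over all genes the shares were 24% and 13.6%. The median log2 differences of these markers were 1.16 at CT12 and 1.39 at CT0. The sum of 5 cholangiocyte markers ran from 88.4 to 124 in labelled knockout livers and 27.2 to 49.97 in control livers at CT12, and from 93.1 to 152 in labelled knockout livers and 48.6 to 64.8 in control livers at CT0. Of 4 tested, 2 were higher at CT12 (Spp1 and Sox9) and 1 at CT0 (Spp1). Over all genes 6.46% were higher at CT12 and 0.909% at CT0. No Kupffer cell, endothelial, stellate or erythroid marker was called between the genotypes, and no lymphocyte marker passed the filter. Of 8 hepatocyte markers 1 was lower at each time, Alb, and 1 was higher at CT12, Fgb, with median log2 differences of 0.26 at CT12 and 0.03 at CT0. The sum of the 7 without Alb ran from 15616 to 18380 in labelled knockout livers and 12142 to 14233 in control livers at CT12, and from 15884 to 16847 in labelled knockout livers and 15023 to 16805 in control livers at CT0. No marker of these 3 lists was at 0 in all livers of a group in that experiment. Their part in the results on the members was not tested.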

How the data were processed

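Livers of 20 mice were profiled by RNA-seq, and 6 4C libraries were not used here. The deposited values are RPKM per Ensembl transcript, as the authors computed them (per the file headers); TopHat2, Bowtie (not named for replicate 2 of the Nr1d1 experiment), bedtools 2.19.1 and build mm9 are named in the submitters' processing notes. The annotation release and what counted as depth were not given in the sources used here. Tables were joined on the transcript. Differences were fitted over all genes with limma 3.58.1 (R 4.3.3, trended eBayes) on log2(RPKM + 0.5), a scale that understates changes of low genes, keeping genes that averaged at least 0.5 RPKM. Tests were two-sided, with Benjamini-Hochberg adjustment over all genes of a comparison and calls at an adjusted p under 0.05. A fit covered the 4 groups of an experiment.

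In the Nr1d1 experiment the replicate number was a block: libraries of the same number deviated together (r of 0.82 to 0.88 over 12 pairs), and only replicate 2 is described as paired-end. The Bmal1 fit had no block: the labels' protocols speak of pairs of knockout and wild-type mice and tie no number to a pair. P-values set a difference against the spread between these samples, shared by the groups of a fit and moderated over all genes by limma. The members and gene lists were chosen with earlier results of these data known. Named were all members, listed genes called between the genotypes, up to 6 a list by size, and the 5 genes most like Dio1; Arntl, Nr1d1, the examples of levels that were not called and the genes called between the times were added after their values were seen. Of 130 listed symbols, 128 matched. Whole reads were recovered from the Bmal1 values for 98.8% of 2000 transcripts tried (tolerance 0.05 of a read). Fits were tested on simulated data. Alternatives were other pseudocounts, no filter, TMM scaling, summed transcripts, fits of the compared groups only, the block, and each library left out.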

Additional observations from a re-analysis of the deposited data

Results flagged for a closer look

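With the deposited values, Klf9 was the 1 listed gene whose genotype difference in the Bmal1 experiment passed a test of its change between the times: the difference at CT12 minus that at CT0 was 0.74 ± 0.14 on the log2 scale (limma, adjusted p = 0.0241), where 1.31% of genes were called (111 higher and 39 lower with the deposited values, 86 and 60 with TMM scaling). Klf9 stood at 18.2, 18.1 and 18.2 RPKM in labelled Bmal1 knockout livers and 15.9, 15.7 and 16.8 in control livers at CT12, and at 9.42, 11.6 and 11.7 RPKM in labelled knockout livers and 17.8, 15.2 and 16.2 in control livers at CT0. The call held in 4 of the 12 fits that left out 1 library (0.64 to 0.79, adjusted p up to 0.0665) and was lost without any CT12 liver and without replicate 1 or 3 of the CT0 control livers. With TMM scaling the change was 0.66 (adjusted p = 0.0672). Under that scaling Sepsecs (-0.56, adjusted p = 0.0436) and Srebf1 (-1.37, adjusted p = 0.0461) passed in its place, and with a replicate block 0 listed genes passed. In the Nr1d1 experiment it was 0.78 ± 0.46 (adjusted p = 0.964).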

How the results depend on the processing

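Of 50 member differences, none that was called reversed under any alternative, and 13 that were never called changed sign somewhere. Without the filter on low values the fall of Thrsp at CT12 (-2.53, adjusted p = 0.0738) and that of Thra between the times in control livers (-0.72, adjusted p = 0.0699) lost their calls, and 4, 3 and 6 listed genes were called for time in control livers, for genotype at CT0 and at CT12. With TMM scaling Thrb passed at CT12 (-0.45), Thrsp passed for time in control livers (2.38, adjusted p = 0.0445), Thra lost its call (-0.63), and 2 listed genes had a called change of the genotype difference. TMM moved the median of all genes by over 0.1 in 1 comparison, CT12 minus CT0 in labelled Nr1d1 knockout livers (0.16 as deposited, -0.0058 with TMM). With transcripts summed, Thra for time in control livers was -0.64 (adjusted p = 0.0841). With the compared groups alone in the fit, time in control livers gave 2.28 for Thrsp (adjusted p = 0.00157) and -0.72 for Thra (adjusted p = 0.0806), and 2 and 4 listed genes were called for time in labelled Bmal1 knockout livers and genotype at CT0. In the Nr1d1 experiment the same choice made Thrsp pass for time in labelled knockout livers (1.92, adjusted p = 0.049) and control livers (1.98, adjusted p = 0.00875), with 4, 3 and 1 listed genes called for time in labelled knockout livers, time in control livers and genotype at CT12. With a replicate block in the Bmal1 experiment, Thrsp passed for time in control livers (2.28, adjusted p = 0.0334) and for the change of its genotype difference (-4.11, adjusted p = 0.0461), and 0 listed genes passed for that change; it changed no other member call. Same-numbered Bmal1 libraries deviated together little (r of -0.06 to 0.12 over 18 pairs), so the numbers are not taken to pair them. Without the replicate block in the Nr1d1 experiment no member was called either, with adjusted p of 1. Leaving out each library in turn gave, for Thrsp, -2.92 to -2.27 at CT12, 2.02 to 2.53 for time in control livers and -4.80 to -3.07 for the change; for Thra -0.96 to -0.53 for time in control livers and 0.47 to 0.90 at CT12; and for Thrb -0.43 to -0.25 at CT12. Listed genes called ranged from 6 to 16 for genotype at CT12, 4 to 7 at CT0, 3 to 10 and 4 to 8 for time in labelled knockout and control livers, 0 to 1 for the change, and 0 to 1 for time in labelled Nr1d1 knockout livers. Why these results moved was not tested. A count test on recovered reads was not run. Read depth is known only up to a shared multiplier, and 2 livers per group limit the Nr1d1 experiment.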
